A study of Mus musculus with 18 samples.

Results

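The comparison described here set the mouse cochlear nucleus at postnatal day 14 (P14) against day 7 (P7) on oligonucleotide arrays of the 430A design, the interval that spans the onset of hearing. Its members were taken by sample title, 3 arrays of P7 and 2 arrays of P14, and make up 5 of the 18 samples of the series. All came from C57BL/6J mice with no treatment, and each array received biotin-labelled RNA of cochlear nuclei pooled from 5 pups. The labels do not say whether the pools of an age came from separate animals or litters, so the p-values measure the spread between these arrays, which may be partly technical. The 3 P21 arrays of the same design were fitted together with these, so that the ages share 1 estimate of the spread. Their levels are set beside those of P7 and P14, and P21 against P14 is tested to show what followed.

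The cochlear nucleus is the first brain station of hearing, where auditory nerve fibres end on bushy, stellate, octopus and fusiform neurons. In the mouse the ear canal opens and airborne sound begins to drive the nerve during the second postnatal week. Over the same days axons of the brainstem are wrapped in myelin by oligodendrocytes, and its synapses mature. The tissue holds neurons, glia, vessels and adhering membranes, and fewer cells of a type cannot be told apart from less RNA per cell in such bulk RNA.

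Each value is the scaled intensity of a probe set, a group of short oligonucleotides against a transcript. The tables used here do not pair probe sets with genes, and 0 of the 22690 probe set identifiers matched the gene table at hand. Probe sets are therefore given by rank, with identifiers for the 2 leading rises and 2 leading falls. The transcripts named below are those whose names the identifiers of the array's own control probe sets carry. For the same reason the labelled tissue was not checked against marker genes, and no sequence is shown.

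Within an age the arrays resembled each other closely. Log2 signals correlated across probe sets at r = 0.968 to 0.983 among the P7 arrays and at r = 0.981 between the P14 arrays, against 0.903 to 0.930 between the ages (a description, since probe sets share arrays and are not replicates). P7 replicate 1 lay a little apart. It correlated with the P14 arrays at 0.903 and 0.904, where P7 replicates 2 and 3 reached 0.924 to 0.930. Its median absolute log2 difference from replicates 2 and 3 was 0.196 and 0.20, against 0.126 between those. A small set of probe sets was also high on P7 replicate 3 and P14 replicate 1 together, as described further on.

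The ages differed in a large part of what the array measured. Of 15296 probe sets bright enough to test, 4524 (29.6%) passed at an adjusted p under 0.05 in limma. Of all tested, 12.9% (1967) were higher and 16.7% (2557) lower at P14. The count was 2434 without P14 replicate 1 and 2378 without P14 replicate 2, where the lone P14 array is assumed to vary like the other ages. The median change of those that passed was 0.70 upward and 0.70 downward on the log2 scale. Among these, 472 rose and 545 fell by at least 1, 65 rose and 40 fell by at least 2, and 9 rose and 1 fell by at least 3. The ages did not overlap in 58.9% of tested probe sets, with all P14 arrays above all P7 arrays in 24.3% and below them in 34.6%. With so few arrays, some probe sets do not overlap even without a change. The median change over all tested was -0.07 on the log2 scale under the scaling used. Of those that passed, only 3 had overlapping arrays.

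The largest rise among probe sets with a mean of at least 200.06 in the higher age was that of 1425546_a_at. Its signal was 199, 585 and 547 on the P7 arrays and 4208 and 3988 on the P14 arrays. The ages were far apart, and P7 replicate 1 was the lowest array. The log2 change was 3.31 (SE 0.36, limma adjusted p = 0.00018), from 443 ± 212 (SD, n = 3) to 4098 ± 156 (SD, n = 2). The P21 arrays, at 3728, 5446 and 4629, lay on either side of the P14 level.

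The next rise, that of 1448767_s_at, went from 10.6, 86.8 and 47.4 at P7 to 444 and 529 at P14. Again P7 replicate 1 was the lowest and the ages did not overlap. The log2 change was 3.27 (SE 0.45, limma adjusted p = 0.000588), and it was 2.69 without P7 replicate 1. Since the P7 signals were low, the size depended on the constant added before taking logs, with 3.65 for a smaller and 2.52 for a larger one. At P21 the signals were 578, 561 and 556, close to one another and just above those of P14.

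The largest fall was that of 1418141_at, from 1134, 1144 and 1294 at P7 to 97.7 and 185 at P14. The P7 arrays were close together, and P14 replicate 2 was higher than P14 replicate 1. The log2 change was -3.02 (SE 0.26, limma adjusted p = 5.19e-05), from 1191 ± 89.8 (SD, n = 3) to 141 ± 61.9 (SD, n = 2). The P21 signals of 74.1, 99.8 and 140 covered part of the same range as those of P14.

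The next fall was that of 1455447_at, from 1004, 996 and 900 to 88.4 and 161. Its arrays were ordered in the same way at P14 and were again tight at P7. The log2 change was -2.88 (SE 0.38, limma adjusted p = 0.000492). The P21 signals were 61.2, 21.4 and 88.0, all below the lower P14 array.

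Some of the leading changes were much tighter between arrays. The rise of rank 7 had P7 signals of 154, 148 and 129 and P14 signals of 1246 and 1166. Its log2 change was 2.97 (SE 0.15), and its limma adjusted p of 9.95e-06 was the lowest of the 24 leaders. Unlike in most of the rises, P7 replicate 1 was here the highest P7 array. The fall of rank 9 went from 383, 395 and 400.5 at P7 to 59.2 and 70.5 at P14, with P21 at 52.5, 52.2 and 48.9. Neither the P7 nor the P21 arrays differed much among themselves, and its change was -2.39 (SE 0.14) on the log2 scale.

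The size of a change from a dim level was less certain. The rise of rank 4 had 4.90, 81.4 and 48.5 at P7 and 404 and 410 at P14. Its P7 replicate 1 lay far below the other P7 arrays, while the P14 arrays were nearly equal. Its log2 change of 3.18 had the largest SE of the 24, 0.53 (limma adjusted p = 0.00173). It was 2.47 without P7 replicate 1, and 3.69 with a smaller and 2.36 with a larger constant. A probe set below the minimum signal for leaders, with P7 signals of 3.20, 2.70 and 2.90, stood at 168 and 162 at P14. Its fitted change of 3.52 has no firm size, since it was 4.95 with the smaller and 2.02 with the larger constant.

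**Figure D1:**
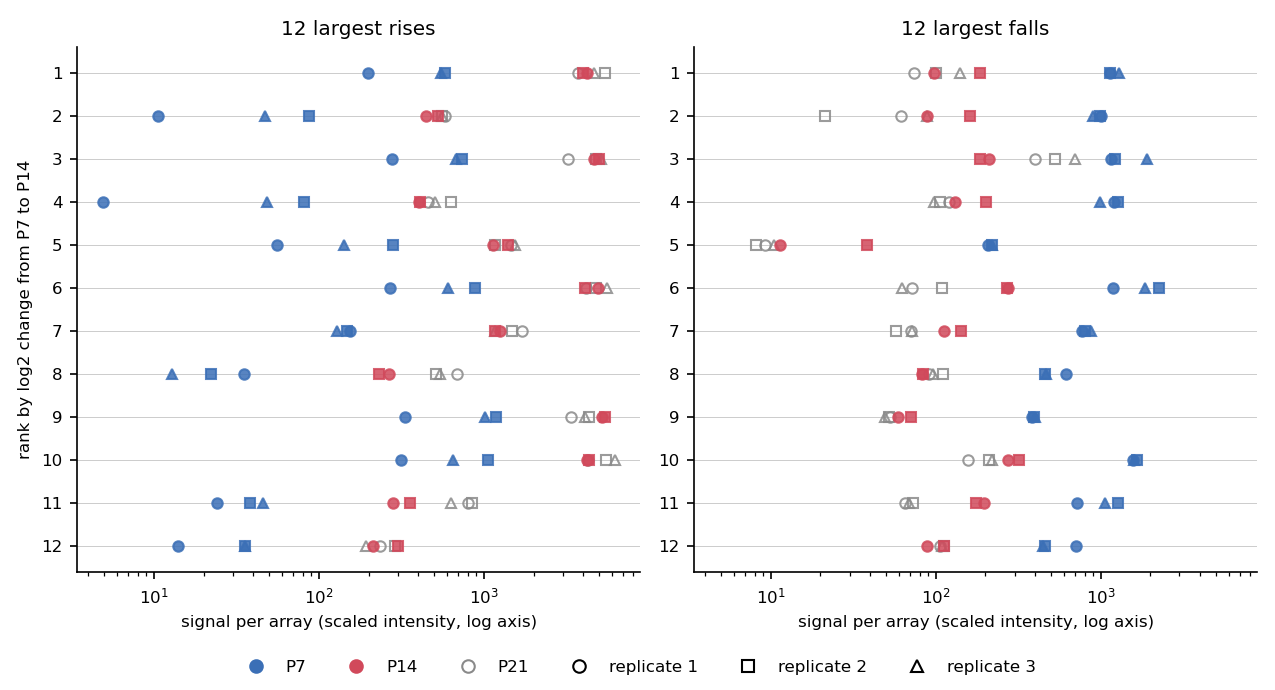
Signal on each array (scaled intensity, log axis) of the leading probe sets, a row each by rank. They are the 12 largest rises and 12 largest falls from P7 to P14 with a mean of at least 200.06 in the higher age. Colours mark ages and symbols mark replicates. In the rises P7 replicate 1 (blue circles) was the lowest array in 10 of 12 rows. In all 24 rows the P21 arrays (open grey) lay on the P14 side of every P7 array.

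Dimmer probe sets made up 4 of the 12 largest rises and 5 of the 12 largest falls before the minimum signal was applied. The 12 leading rises spanned log2 changes of 2.76 to 3.31 and the 12 leading falls -3.02 to -2.27. The rises came from mean signals of 23.3 to 840 at P7 and reached 249 to 5296 at P14. The falls started between 215 and 1767 and ended between 24.9 and 298. These probe sets were picked for their size, so their sizes are a description. Since probe sets were not paired with genes, several of the 24 may report on the same transcript. The order of the leaders depended on the constant, with the rise of rank 2 above that of rank 1 for the smaller one (3.65 and 3.35). In the rises of rank 8, 11 and 12 all P7 arrays, and in the fall of rank 5 both P14 arrays, were at or below 49.1, the highest signal of absent bacterial control transcripts described further on. Their fitted changes are therefore not measured sizes. Over the alternatives they ran from 2.03 to 3.37, 2.10 to 3.09 and 1.97 to 3.15 for these rises and from -3.25 to -1.85 for the fall. All 24 passed in all 503 combinations of probe set and alternative that could be run, as the closing section sets out. P7 replicate 1 was the lowest P7 array in 10 of the 12 rises but the highest in 3 of the 12 falls. Without it the rises were 2.26 to 3.13 and the falls -3.06 to -2.06.

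The position of P7 replicate 1 was also visible over the whole list. It was the lowest P7 array in 52.0% of the probe sets that rose, against 36.7% of all tested. It was the highest P7 array in 49.5% of those that fell, against 41.8% of all tested. The median log2 distance from the P14 mean to P7 replicate 1 was 0.76 for the rises and -0.75 for the falls. For P7 replicates 2 and 3 it was 0.67 and 0.66 for the rises and -0.68 and -0.66 for the falls. All 3 P7 arrays thus lay well away from P14, replicate 1 the farthest. Without it, 3865 probe sets passed. Since these probe sets were chosen on the same arrays, the shares are a description.

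What happened after P14 differed among the leaders. Of the 12 rises, 2 went on rising from P14 to P21 past the threshold, and none fell back past it. They went from 23.3 at P7 to 249 and then 581, and from 36.1 to 318 and then 762 (age means). The other 10 had changes from P14 to P21 of -0.44 to 0.36 on the log2 scale, none of which passed. Of the 12 falls, 3 fell further past the threshold. The steepest of these went from 1767 through 272 to 81.2, and the others from 813 through 127 to 66.7 and from 1016 through 185 to 69.0. Across the array, 2.05% of probe sets passed for P21 against P14.

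1 leading fall turned back. Its signals were 1159, 1211 and 1917 at P7, 209 and 184 at P14, and 397, 528 and 695 at P21. The P14 arrays were the lowest of the 8, and the P21 arrays lay between those of the other ages. The change from P7 to P14 was -2.75 (SE 0.25) and the change from P14 to P21 was 1.37 (limma adjusted p = 0.029). Its identifier carries the mark of a probe set in which some oligonucleotides match more than 1 sequence, so another transcript may contribute. Among the 24 leaders 2 carry that mark, both falls. In 2 of the rises, 1448767_s_at among them, the mark is instead that of oligonucleotides shared by transcripts that may belong to several genes.

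A contrast of its own asked whether the change before P14 differed from the change after it, and 8.01% of tested probe sets passed. Ranked here were probe sets that also passed for P14 against P7, with a mean of at least 200.06 in the higher age. The dimmer probe set with P7 signals of 3.20, 2.70 and 2.90 was left out, at 3.39 with no firm size. The most positive of the ranked differences were 3.40 and 3.35. The first rested on a single array. Its P7 signals were 64.1, 52.6 and 78.6, its P14 signals 109 and 592, and its P21 signals 74.1, 77.3 and 83.3. Without P14 replicate 2 it was 1.08 (limma adjusted p = 0.305), and over 18 alternatives its adjusted p ran from 0.00527 to 0.305. The second was the rise of rank 3, with P7 signals of 279, 737 and 679 and P14 signals of 4670 and 4964. Its P21 arrays stood at 3220, 4800 and 5096, around the P14 level. Its difference was 3.44 (adjusted p = 0.104) without P14 replicate 1 and 3.26 (adjusted p = 0.141) without P14 replicate 2 in limma, so the call needed both arrays (range of adjusted p over 18 alternatives, 0.00246 to 0.141). The most negative difference, -4.12, was that of the leading fall that turned back. The next, -3.93 (SE 0.49, limma adjusted p = 0.00359), belonged to a probe set at 290, 288 and 212 at P7, 40.3 and 56.5 at P14 and 252, 121 and 224 at P21. Its P14 arrays were low and its P7 and P21 arrays overlapped, and it too is marked as matching more than 1 sequence in part. Without P14 replicate 1 that difference was -3.54 (adjusted p = 0.0534), and without P14 replicate 2 it was -4.31 (adjusted p = 0.0412; range over 18 alternatives, 0.00308 to 0.0534).

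2 probe sets further down, singled out after their values were seen, had a clear extreme at P14 on both P14 arrays. One stood at 168, 194 and 225 at P7, rose to 988 and 1009 at P14, and was at 470, 583 and 608 at P21. Its change from P14 to P21 was -0.84 (limma adjusted p = 0.0278). The other stood at 537, 579 and 614 at P7, fell to 232 and 186 at P14, and was back at 731, 548 and 641 at P21. Its change from P14 to P21 was 1.56 (limma adjusted p = 0.00338). Their differences between the intervals, 3.14 and -2.97, passed with either P14 array left out. In all, 32 probe sets rose to P14 and then fell, and 56 fell to P14 and then rose, past the threshold in both intervals. Both changes use the same P14 arrays, in one added and in the other subtracted, so they are not independent. The counts of 32 and 56 hold for the scaling described further on, under which the P14 arrays had the lowest median signals. Whether they change with another scaling was not tested.

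A few probe sets went from the level of absent transcripts to a clear signal. Bacterial poly-A control transcripts other than the brightest on an array were taken as absent from it. They gave signals with a median of 4.4 and a highest value of 49.1 over the P7 and P14 arrays. In 5 probe sets all P7 arrays were at or below that highest value and all P14 arrays were at or above 200.06. The brightest of them at P14 had P7 signals of 24.1, 38.2 and 46.0 and P14 signals of 280 and 356. At P21 all arrays of all 5 stayed above the control limit. The reverse was met by 1 probe set, the fall of rank 5, with P7 signals of 208, 218 and 220 and P14 signals of 11.4 and 38.4. At P21 it was at 9.20, 8.10 and 10.4. These limits were chosen after the data were seen, and the counts move with single arrays. The first was 9 without P7 replicate 2, and the second was 2 without P14 replicate 1 and 7 without P14 replicate 2.

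Rises and falls were spread unevenly over brightness. Tested probe sets were divided by mean signal over all arrays of the fit, later ages included, into 3 groups of 5099, 5098 and 5099. Such a mean contains the change itself. A lasting rise moves its probe set toward the brighter groups, and a lasting fall toward the dimmer ones. Part of the uneven spread is therefore built into the grouping, and how large that part is was not tested. In the brightest group, with means from 347 up, 42.1% passed, 1242 upward and 906 downward. In the middle group 29.3% passed, 516 upward and 976 downward. In the dimmest group, with means of at most 133, 17.3% passed, 209 upward and 675 downward. The median SE of the log2 change fell from 0.21 in the dimmest to 0.13 in the brightest group, so the same change was called more often there.

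**Figure D2:**
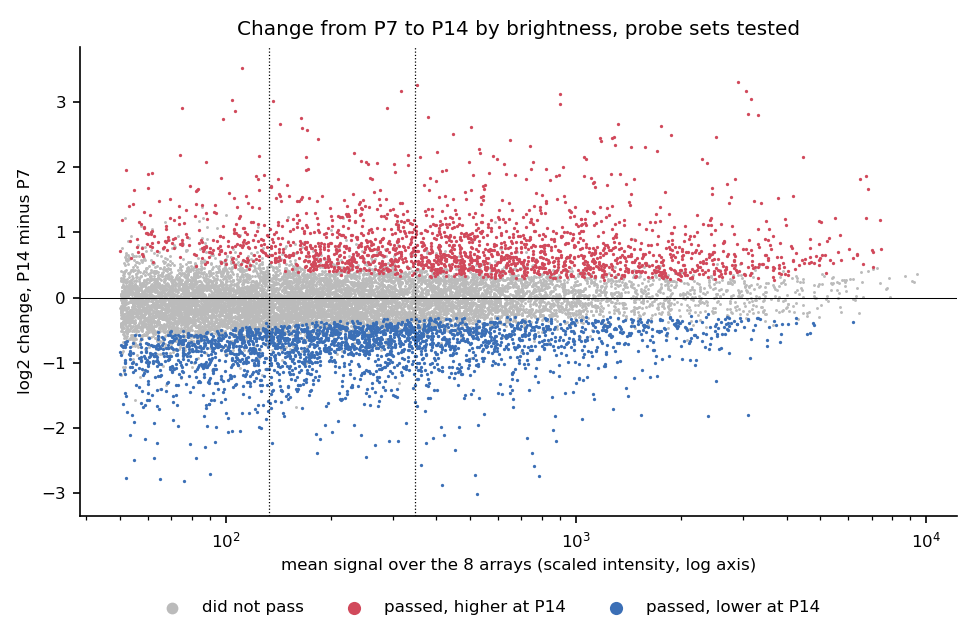
Log2 change from P7 to P14 of each tested probe set against its mean signal over the 8 arrays (log axis), with dotted lines at the borders of the 3 brightness groups. Red points passed upward (1967), blue points passed downward (2557) and grey points did not pass. Red points are sparse at the dim end and dense at the bright end. Because the mean includes the later ages, a lasting change shifts its own point along the axis.

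The size of this split depended on how the arrays were brought to a common level. The deposited arrays share a trimmed mean of 250.1, but their median signals were 110.5, 108.8 and 110.1 at P7 and 98.7 and 98.8 at P14. At P21 the medians were 102.95, 108.7 and 102.55, so those of P14 were the lowest. Under that scaling the median change over all tested probe sets was -0.07 on the log2 scale. With quantile normalization, which gives all arrays the same distribution, it was near 0 and 2057 probe sets rose while 2052 fell. In the dimmest group the share of calls that were rises was 23.6% under the common trimmed mean and 44.5% after quantile normalization. In the middle group it was 34.6% and 49.2%, and in the brightest 57.8% and 52.4%. Of changes of at least 1, 524 were then upward and 424 downward, the opposite order of that under the trimmed mean. Of changes of at least 2, rises outnumbered falls under both, with 71 against 34 after quantile normalization.

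**Figure D3:**
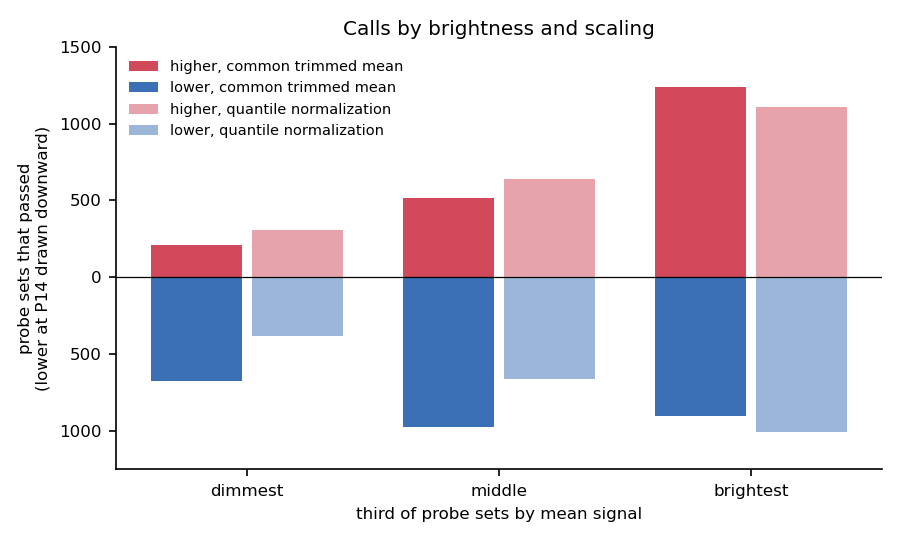
Number of probe sets that passed in each brightness group, rises drawn upward and falls downward, under the common trimmed mean (dark) and after quantile normalization (pale). The dimmest group had 209 rises and 675 falls in the first and 306 rises and 381 falls in the second.

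The poly-A control of each array was read from the signals, as the bacterial poly-A transcript with the highest mean signal. It divided the arrays across the ages. P14 replicate 1 had dap, as had P7 replicates 1 and 2, while P14 replicate 2 and P7 replicate 3 had lys. What else those arrays share is not stated in the labels. Within the dap arrays the median log2 change of the probe sets that rose was 0.71 and within the lys arrays 0.67. For those that fell the medians were -0.72 and -0.66. The sign of the change was the same within both in 1965 of the 1967 that rose and in all 2557 that fell, against 76.6% of all tested. Where the P7 and P14 arrays do not overlap, the sign must be the same within both. Almost all that passed did not overlap, and the leaders were picked so, so this agreement follows from the selection. The 12 leading rises changed by 2.65 to 3.57 within dap and 2.41 to 3.25 within lys. The 12 leading falls changed by -3.39 to -2.22 and -3.29 to -1.88.

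**Figure D4:**
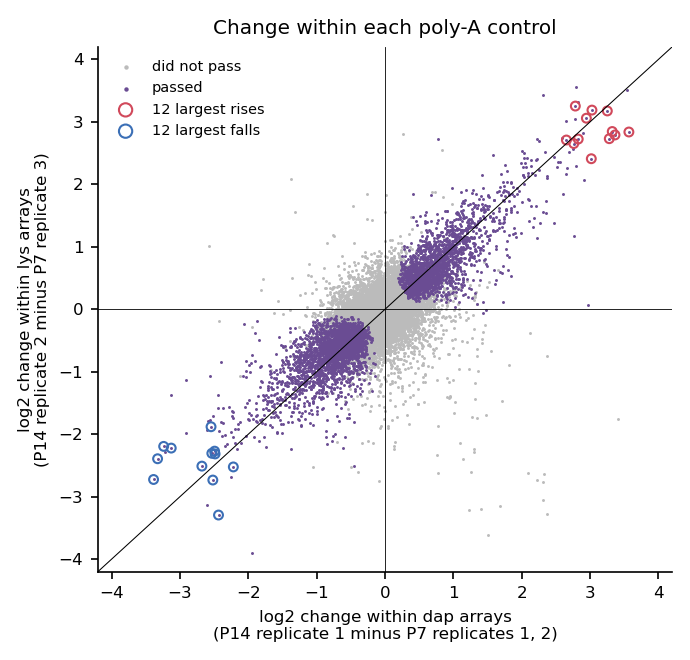
Log2 change from P7 to P14 of each tested probe set within the dap arrays (horizontal axis) and the lys arrays (vertical axis). The control of an array was read from the signals, and the line marks equal change. Circles mark the 12 leading rises and falls, which were picked as not overlapping and lie in opposite corners. Some lie off the line, such as the fall of rank 5 at -3.24 within dap and -2.19 within lys. Grey points at the lower right are probe sets high on P7 replicate 3 and P14 replicate 1.

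That group at the lower right was a common feature of those 2 arrays. In 99 probe sets P14 replicate 1 exceeded P14 replicate 2 by at least 1 on the log2 scale, and in 48 P7 replicate 3 exceeded both other P7 arrays by as much. Both held in 28. The one with the widest gap at P7 had P7 signals of 47.7, 28.0 and 398 and P14 signals of 235 and 53.4. Another had 154, 129 and 1001 at P7 and 753 and 109 at P14. In all 28 the P21 arrays lay below both P7 replicate 3 and P14 replicate 1. The median change of the 28 from P7 to P14 was 0.04, and 0 were among the 24 leaders. In the age comparison 1 of them (3.57%) passed, against 29.6% of all tested. They were chosen for a wide spread within both ages, which by itself makes a call less likely.

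Transcripts of known name came from the array's control probe sets for mouse RNA, which lie at the 5′ end, the middle and the 3′ end of each transcript. They were tested in a fit that kept them, added after seeing the data, in which 4522 probe sets passed. Transferrin receptor, which brings iron-loaded transferrin into cells, rose. Its 3′ probe set had P7 signals of 74.8, 91.1 and 154 and P14 signals of 349 and 196. It changed by 1.26 on the log2 scale (SE 0.30, limma adjusted p = 0.0111). The ages did not overlap, but P7 replicate 3 and P14 replicate 1 were the high arrays of their ages, as in the 28 probe sets above. The part of that in this result was not tested. The change was 1.93 within the dap arrays and 0.33 within the lys arrays, and without P14 replicate 1 it was 0.86 (limma adjusted p = 0.126). The 5′ and middle probe sets were too dim to test, at 23.5 to 36.6 and 18.3 to 30.8 at P7 and at 55.0 and 66.7 and 53.2 and 72.1 at P14.

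Pyruvate carboxylase, a mitochondrial enzyme that makes oxaloacetate from pyruvate and is found in brain mainly in astrocytes, was higher at P14 in all 4 of its probe sets, and 1 passed. The 3′ probe set had P7 signals of 230, 245 and 232 and P14 signals of 309 and 321. Both ages were tight, and the change was 0.40 on the log2 scale (SE 0.11, limma adjusted p = 0.0186), with P21 at 351, 342 and 364. It was 0.36 within dap and 0.45 within lys. The call was lost without P7 replicate 3 (0.39, adjusted p = 0.0531), without P14 replicate 1 (0.43, 0.0805) and without P14 replicate 2 (0.37, 0.118) in limma, and when blocking on the poly-A control (0.40, 0.0645). The other 3 probe sets, dimmer, had log2 changes of 0.38, 0.65 and 0.28 that did not pass. All P14 arrays lay above all P7 arrays in each of the 4, as in 24.3% of all tested probe sets. The 4 report on the same transcript and arrays, so they are not independent.

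Among housekeeping transcripts, Gapdh, a glycolytic enzyme, had higher signals on both P14 arrays than on all P7 arrays in all 3 probe sets. So had 24.3% of all tested probe sets, and the 3 are not independent. The log2 changes of Gapdh were 0.27, 0.40 and 0.36 and did not pass (limma adjusted p = 0.207, 0.0899 and 0.0729). Its middle probe set went from 5111, 6029 and 6023 to 7458 and 7235. After quantile normalization the changes were 0.04, 0.15 and 0.14, and when blocking on the poly-A control the middle probe set passed (0.36, limma adjusted p = 0.0482). Beta-actin, of the cytoskeleton, overlapped between the ages in all 3 probe sets, with changes of 0.04, 0.10 and -0.04. After quantile normalization these were -0.18, -0.14 and -0.27, so the first and second changed sign, and the last passed (limma adjusted p = 0.0198). The ratio of 3′ to 5′ signal, which rises when RNA is degraded, was 0.820 to 0.904 at P7 and 0.782 and 0.791 at P14 for Gapdh. For beta-actin it was 1.01 to 1.17 and 1.02 and 1.05.

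Signal of 18S ribosomal RNA, a structural RNA that should be largely left out when labelling starts from poly-A tails, was low at P14 and uneven at P7. Its 5′ probe set had 155, 3530 and 284 at P7 and 43.6 and 38.6 at P14, with P21 at 1196.7, 943.9 and 6136.5. It changed by -3.39 on the log2 scale (SE 1.12, limma adjusted p = 0.044). P7 replicate 2 stood far above the others, and without it the change was -2.06 (limma adjusted p = 0.0619). The call was also lost without P14 replicate 1 (-3.46, limma adjusted p = 0.153) and without P14 replicate 2 (-3.32, 0.166). It was lost too after quantile normalization (-3.25, limma adjusted p = 0.0563) and when blocking on the poly-A control (-3.25, 0.086). The 2 other 18S probe sets were also lower on both P14 arrays, as were 34.6% of all tested probe sets. Their changes of -2.06 and -1.35 did not pass. Whether other probe sets moved with 18S was not tested.

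**Figure D5:**
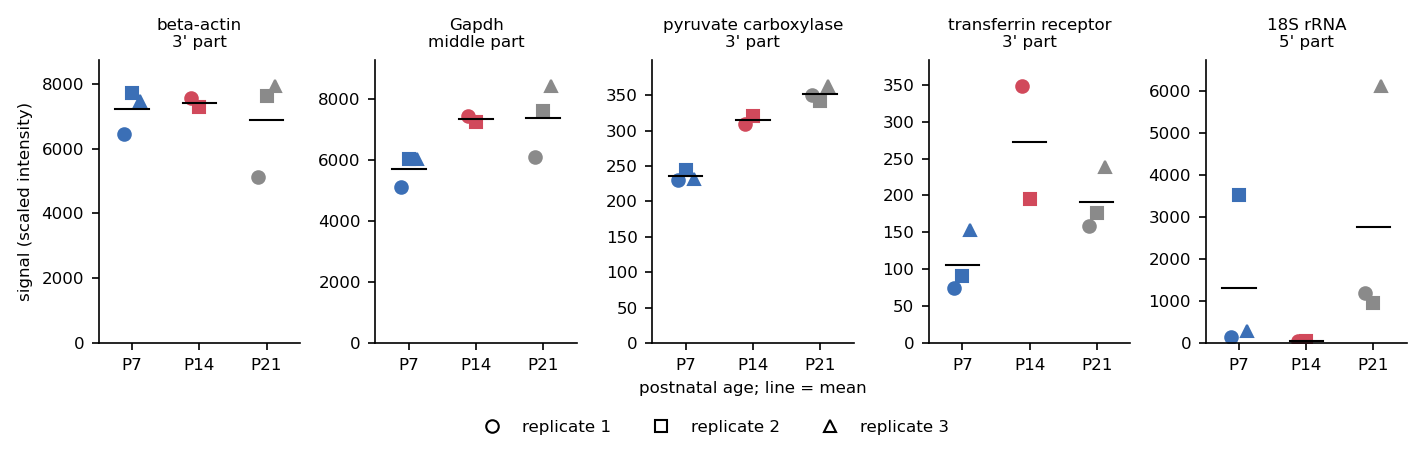
Signal per array (scaled intensity, axis from 0) of 5 transcripts whose names the control probe sets carry, by age, with symbols for replicates and a line at the mean. The P7 and P14 arrays overlap for beta-actin and not for the other 4. Of all tested probe sets, 58.9% did not overlap. The 18S signal at P7 rests on replicate 2.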

How the data were processed

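The deposited table holds 1 linear intensity per probe set and array. Per the submitters' processing notes it was made with GCOS (Affymetrix), of unstated version. The 8 deposited columns have the same 2%-trimmed mean. They were scaled to its average of 250.1, and log2(intensity + 12.5) was taken, so changes of dim probe sets are understated. After removal of 64 controls, a mean over the 8 arrays of at least 50.0 was required for testing, which 15296 of 22626 met.

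limma 3.58.1 (R 4.3.3; lmFit, eBayes with trend) fitted P7 (n = 3), P14 (n = 2) and P21 (n = 3) together with 5 residual degrees of freedom. All tests are two-sided. The Benjamini-Hochberg adjustment covered all of the 15296, and calls needed an adjusted p under 0.05. The fit was also run on simulated data with independent noise and 200 changed probe sets. That setting holds no effect shared by probe sets of an array, so it does not check for one. Arrays give no read depth, and their number limits the precision.

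Leading probe sets were the 12 largest changes each way among those that passed, did not overlap and had a mean of at least 200.06 (4 times the filter) in the higher age. For changes that differ between intervals, no lack of overlap was asked. Members, lists and rules were chosen with earlier results of these data known. The 32 gene lists and the gene-level count were not run, since probe sets could not be paired with genes. The spotted cDNA arrays hold no P14 sample and were not used.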

Additional observations from a re-analysis of the deposited data

How the results depend on the processing

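Of 21 alternatives, 18 left the count of probe sets that passed (4524, with 1967 higher and 2557 lower at P14) within 1.5 times. At an adjusted p under 0.01 in limma it was 2426 (1161 higher and 1265 lower). With 1 array left out it ran from 2378 to 4771 (1082 to 2081 higher, 1296 to 2695 lower), lowest without either P14 array. With the replicate block it was 4406 over the 8 arrays and 3917 over the 5 arrays. Over the 5 arrays that block leaves 1 residual degree of freedom. P7 replicate 3, the only array of its number there, then does not enter the change. When blocking on the poly-A control, which leaves 2 residual degrees of freedom, the count was 3775. The replicate numbers are not stated to mark a shared litter or day. Deviations of same-numbered P7 and P14 arrays correlated across probe sets at -0.04 for number 1 and 0.14 for number 2. The highest correlation, 0.19, was that of P7 replicate 3 with P14 replicate 1, which differ in number. With 2 P14 arrays, whose deviations mirror each other, this does not settle whether the numbers pair the arrays, and the fit without the block was kept.

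The 24 leading probe sets kept their direction and passed in all 503 combinations of probe set and alternative that could be run. In 1 further combination a stricter filter left the probe set out. The alternatives refit the same arrays, and some hardly differ from the main fit, so the combinations are not independent. The rises ranged from 1.97 to 3.74 and the falls from -3.45 to -1.85, with a highest limma adjusted p of 0.0184 and 0.00884. The most positive difference between intervals did not pass in 10 of 18 alternatives. The gene-level alternative was not run.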

Other observations

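The widest gap between the P14 arrays was that of a probe set at 462 and 35.3, with P7 signals of 78.4, 81.0 and 450. Its P21 signals were 3.80, 2.80 and 6.00. Its log2 change from P7 to P14 was -0.07 (limma adjusted p = 0.965), although arrays of both ages spanned a wide range. The next gap ran the other way, with 38.9 and 424 at P14, and 312, 278 and 204 at P7.

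Among changes of at least 1.5 on the log2 scale, 2 did not pass. The larger fall of them went from 125, 461 and 394 at P7 to 110 and 58.2 at P14, a log2 change of -1.68 (limma adjusted p = 0.0732). P7 replicate 1 was the lowest P7 array and lay close to P14 replicate 1.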
